A study of Mus musculus with 9 samples.

Results

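The 10 genes described here encode the NF-kappa-B transcription factor subunits (Nfkb1, Nfkb2, Rel, Rela and Relb), their IkB-type inhibitors and regulators (Nfkbia, Nfkbie and Nfkbiz), the feedback enzyme A20 (Tnfaip3) and the cytokine tumour necrosis factor (Tnf). They were taken by symbol from the deposited count table, which holds 16200 genes, and all 10 were found and passed the filter on low counts that kept 12587 genes for testing. The cells were macrophages grown for 6 days from the marrow of wild-type mice, in medium with L929 cell supernatant as the source of growth factor. The 9 libraries form 3 groups of 3, made from untreated cells, from cells kept 12 h with 20 ng/ml of interleukin-4 (IL-4) and from cells kept 6 h with 100 ng/ml of interleukin-27 (IL-27), so that cytokine and time cannot be told apart between the treated groups. The labels' description of the treatment is shared by all samples and does not say whether the cells given IL-27 also received IL-4. The labels give no time for the untreated cells after plating. They also do not say whether replicates are different mice or different dishes, so a p-value here reflects only how much these libraries vary, and that variation may be technical.

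NF-kappa-B factors are dimers of Rel-family proteins that IkB proteins hold inactive in the cytoplasm. Receptors such as the Toll-like and TNF receptors activate the IKK kinase complex, which marks IkB for destruction and lets the dimers enter the nucleus. Nfkbia, Nfkbie and Tnfaip3 are themselves known targets of the pathway, which makes them feedback inhibitors, and Tnf is among its best-known targets in macrophages. IL-4 signals mainly through STAT6 and drives alternative activation of macrophages, and IL-27 is a cytokine of the IL-12 family. RNA levels do not show whether NF-kappa-B proteins were active.

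Libraries held 34577188 to 37951827 counts, and the 10 genes had 73 to 6830 counts each. Untreated replicate 2 and IL-4 replicate 1 stood apart from the rest: pairs of replicates that included one of them differed by 121 to 152 chi-square units per gene, against 6.04 to 10.2 for other pairs. Their deviations from their group means ran together over 9553 genes (r = 0.900, a description). Untreated replicate 2 was the highest library of its group for 7 of the 10 genes and the lowest for Rel, Nfkbiz and Tnfaip3. IL-4 replicate 1 was the highest for 7 and the lowest for Rel. Results are therefore given with both libraries and, where it matters, without them. The libraries left out were picked from these same data, and 2 untreated and 2 IL-4 libraries then remain. In that fit 5909 genes were called for IL-4, against 3145 with all libraries. A smaller adjusted p there describes how a result depends on these libraries and is not independent support for it. All 10 macrophage markers were tested, and their summed level, in counts scaled to library size (CPM), was 23688 to 32430 in untreated, 15206 to 18832 in IL-4 and 24783 to 26905 in IL-27 libraries. Of 6 fibroblast markers 5 were tested, and their sum was 680 to 772 CPM in untreated, 508 to 713 in IL-4 and 1044 to 1306 in IL-27 libraries. None of the 6 fibroblast markers was at 0 in all libraries of a group. Lum was at most 0.136 CPM in any library and was at 0 in untreated replicate 2 and IL-4 replicate 3. Col1a1 had 226 to 510 CPM and Col1a2 266 to 702 over the 9 libraries, while the next highest marker, Dcn, reached 48.0. The part of either sum in the results below was not tested. Bulk RNA cannot tell fewer cells of a type from less RNA per cell.

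The promoters of members that moved together or in opposite directions are shown with their matches to the kappa-B consensus, the DNA sequence that NF-kappa-B dimers bind. RefSeq promoter sequences (mouse build GRCm38.p6) were found for 7 of the 10 genes and none is shown for Nfkb1, Relb and Nfkbiz. The 250 bases before each start were searched on both strands, and overlapping matches were counted as 1 site. Each sequence reads 5′ to 3′ along the gene's strand, with kappa-B matches in capitals.
Nfkbia, chr12:55492648-55492897, minus strand: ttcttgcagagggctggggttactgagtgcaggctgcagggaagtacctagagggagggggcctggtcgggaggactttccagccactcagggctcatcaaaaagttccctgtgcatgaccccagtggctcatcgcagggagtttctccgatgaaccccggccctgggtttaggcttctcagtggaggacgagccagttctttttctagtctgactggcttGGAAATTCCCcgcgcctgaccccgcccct
Nfkbie, chr17:45555450-45555699, plus strand: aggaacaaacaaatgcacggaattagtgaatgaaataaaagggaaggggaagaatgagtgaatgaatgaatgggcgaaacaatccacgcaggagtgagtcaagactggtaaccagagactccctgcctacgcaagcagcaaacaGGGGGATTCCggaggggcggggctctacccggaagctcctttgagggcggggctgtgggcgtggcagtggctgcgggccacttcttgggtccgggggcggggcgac
Tnfaip3, start 1, chr10:19015411-19015660, minus strand: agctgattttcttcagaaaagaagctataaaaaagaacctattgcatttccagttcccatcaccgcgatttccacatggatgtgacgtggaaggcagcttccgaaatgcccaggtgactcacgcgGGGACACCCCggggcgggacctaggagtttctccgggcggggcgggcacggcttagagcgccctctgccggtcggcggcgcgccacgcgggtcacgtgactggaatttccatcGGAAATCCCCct
Rel, chr11:23770970-23771219, minus strand: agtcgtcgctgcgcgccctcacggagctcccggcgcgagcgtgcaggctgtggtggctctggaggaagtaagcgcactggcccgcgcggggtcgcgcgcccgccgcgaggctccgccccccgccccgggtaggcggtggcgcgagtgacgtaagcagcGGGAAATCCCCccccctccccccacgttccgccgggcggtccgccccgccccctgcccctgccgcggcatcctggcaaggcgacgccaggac
Tnf, chr17:35202008-35202257, minus strand: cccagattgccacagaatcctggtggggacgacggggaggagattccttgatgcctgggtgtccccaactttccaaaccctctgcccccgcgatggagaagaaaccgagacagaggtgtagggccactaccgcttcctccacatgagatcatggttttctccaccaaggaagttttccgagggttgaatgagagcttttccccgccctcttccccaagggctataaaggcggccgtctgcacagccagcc
Nfkbia and Nfkbie are the inhibitors that fell with both cytokines. Tnfaip3 and Tnf both fell with IL-4 and both rose with IL-27, and Rel is the subunit that rose with IL-4.

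A kappa-B match stood in the window of 5 of the 7 genes, against 8.23% of 27025 genes with a promoter in the same table. Nfkbia held GGAAATTCCC 29 to 20 bases before its start, and Rel held GGGAAATCCCC 92 to 82 bases before. Nfkbie held GGGGGATTCC 106 to 97 bases before. The first Tnfaip3 start had 2 matches, GGGACACCCC at 125 to 116 and GGAAATCCCC at 12 to 3 bases before it, a number that 0.396% of 32851 promoters reached, while its second start had none. The 3 Nfkb2 starts held 2, 1 and 1. No match was found in the windows of Rela and Tnf, which says only that these letters are not in the 250 bases. Spacings of the STAT type were searched on both strands as TTCNNNGAA, found only at the first Nfkb2 start and in 8.13% of genes, and as TTCNNNNGAA, found only at the first Tnfaip3 start and in 6.76% of genes. Neither overlapped a kappa-B match. These matches are descriptions of sequence and not evidence of binding.

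**Figure D1:**
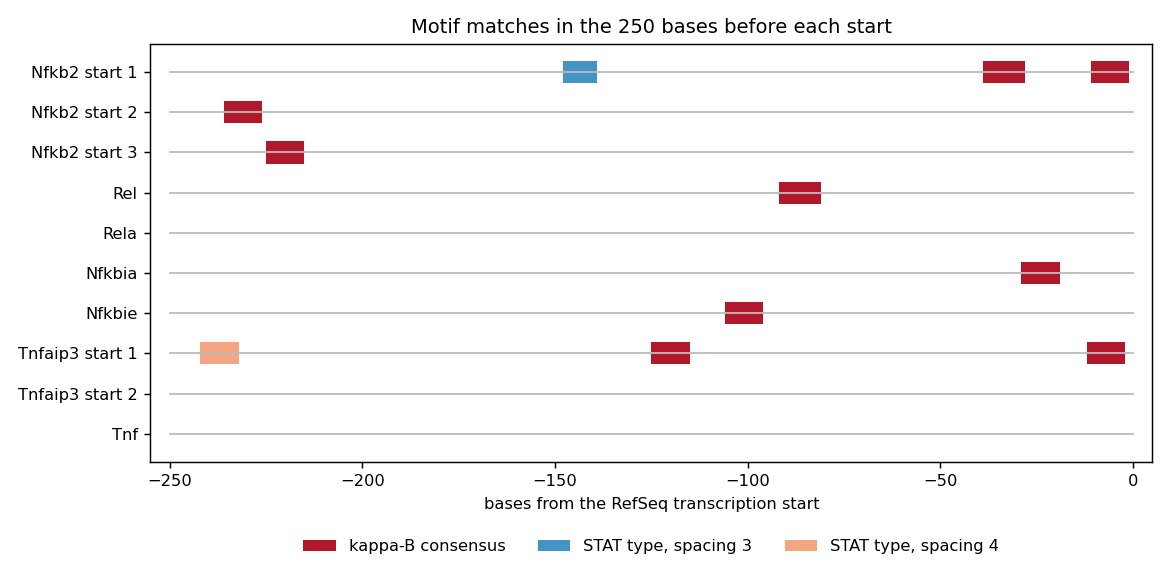
Positions of motif matches (coloured blocks) in the 250 bases before each RefSeq start (x axis, bases from the start; 1 row per start) for the 7 genes with a promoter sequence. Kappa-B matches stand within 39 bases of the start in Nfkb2 start 1, Nfkbia and Tnfaip3 start 1, and the rows of Rela, Tnf and Tnfaip3 start 2 are empty.

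After IL-4 the IkB-type genes, Tnfaip3, Relb and Tnf were lower, while after IL-27 Tnf and Tnfaip3 were higher and the IkB-type genes lower. A gene was called where edgeR's quasi-likelihood test gave a Benjamini-Hochberg adjusted p under 0.05 over all 12587 genes. Against untreated cells, IL-4 libraries had 1 of the 10 genes higher (Rel) and 6 lower (Relb, Nfkbia, Nfkbie, Nfkbiz, Tnfaip3 and Tnf), where 25.0% of all tested genes were called, 12.9% higher and 12.0% lower. IL-27 libraries had 2 higher (Tnfaip3 and Tnf) and 3 lower (Nfkbia, Nfkbie and Nfkbiz), where 29.2% of all genes were called, 14.0% higher and 15.1% lower. Between the cytokines, 4 genes were higher with IL-27 (Relb, Nfkbiz, Tnfaip3 and Tnf) and 2 lower (Nfkb1 and Rel), where 39.8% of all genes were called, 18.8% higher and 21.0% lower.

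The median log2 fold change of the 10 genes was -0.58 for IL-4, -0.33 for IL-27 and 0.26 for IL-27 against IL-4, beside -0.01, 0.00 and 0.01 for all tested genes. The 3 libraries of each group did not overlap for 7, 8 and 7 of the 10 genes, which was so for 36.0%, 52.2% and 56.7% of all tested genes. The first and second comparisons share their untreated libraries, so their values for a gene are not independent. Without the 2 libraries that stood apart, 2 of the 10 genes were higher and 8 lower with IL-4, 2 higher and 5 lower with IL-27, and 6 higher and 2 lower with IL-27 against IL-4, where 46.4%, 49.5% and 58.3% of all genes were called.

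**Figure D2:**
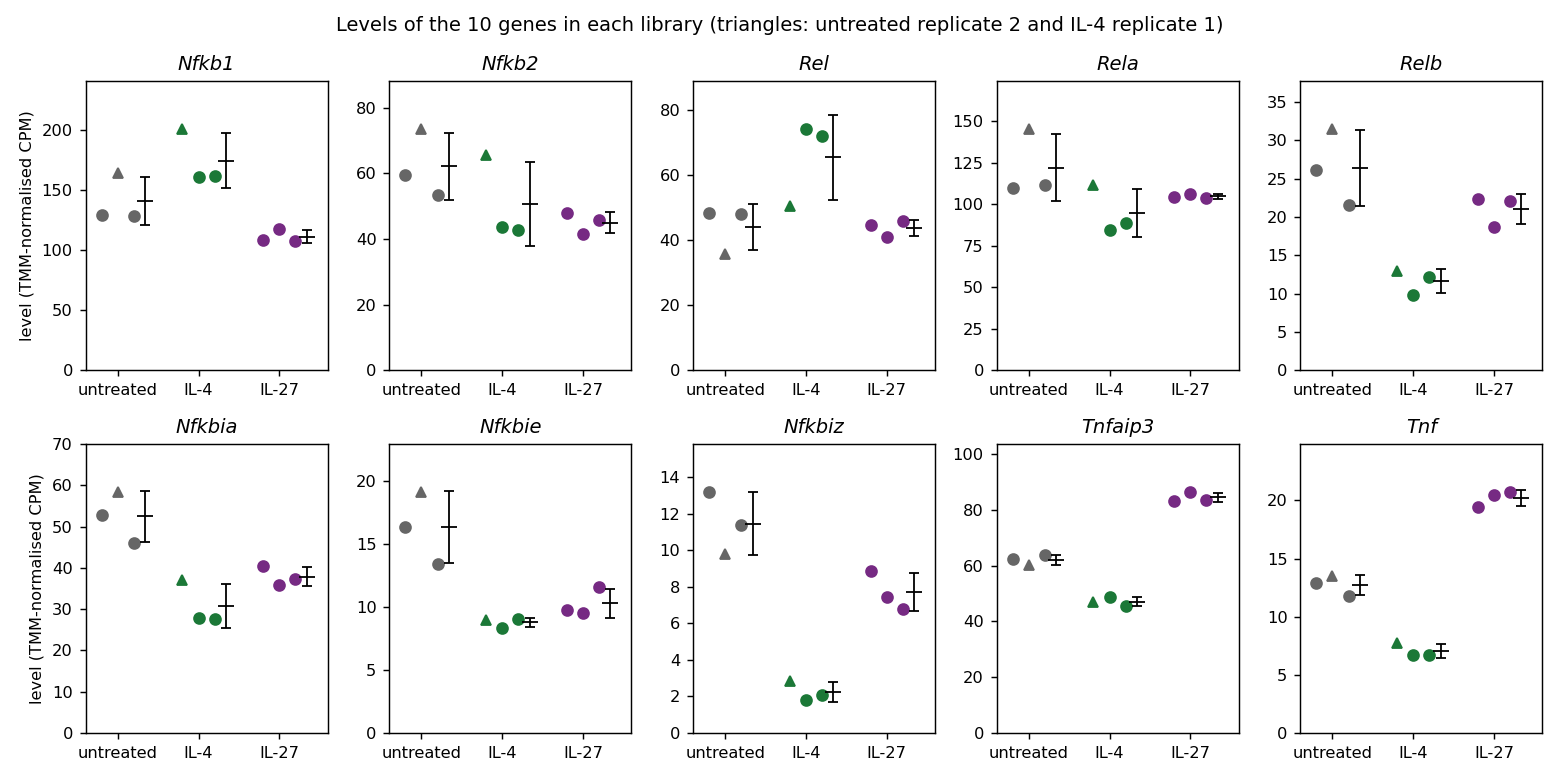
TMM-normalised CPM (y axis, linear from 0) of each gene in the 9 libraries, with points for libraries, a black bar for the mean ± SD of 3, and triangles for untreated replicate 2 and IL-4 replicate 1. Tnf and Tnfaip3 are lowest in every IL-4 library and highest in every IL-27 library, and Nfkbiz is 1.82 to 2.85 CPM in the IL-4 libraries and 6.81 or more in all others.

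Among the subunits, Relb fell with IL-4 and Rel rose, while the others were not called against untreated cells. Relb, the partner of p52 in the non-canonical pathway, had 26.1, 31.4 and 21.5 CPM in the untreated libraries, 12.9, 9.86 and 12.1 with IL-4 and 22.4, 18.7 and 22.0 with IL-27. All IL-4 libraries lay below all others, and the untreated and IL-27 ranges overlapped. It fell 2.26-fold with IL-4 (log2 fold change -1.18 ± 0.16 SE, edgeR adjusted p = 0.000589). With IL-27 its log2 fold change was -0.32 (95% interval -0.64 to -0.01, adjusted p = 0.157 by edgeR), which was not called. Relb was 1.81-fold higher with IL-27 than with IL-4 (adjusted p = 0.00210 by edgeR).

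Rel encodes c-Rel, a transactivating subunit abundant in blood cells, and had 48.2, 35.8 and 47.9 CPM in untreated, 50.4, 74.0 and 71.8 with IL-4 and 44.5, 40.9 and 45.7 with IL-27. The lowest IL-4 library, the one that stood apart, was only just above the highest untreated one. Rel rose 1.49-fold with IL-4 (log2 fold change 0.57 ± 0.16 SE, edgeR adjusted p = 0.0281). In edgeR it missed the threshold when replicate 2 of the untreated group (adjusted p = 0.0604), or replicate 2 (0.0962) or 3 (0.0967) of the IL-4 group, was left out, and when only the 2 groups were fitted (0.0818). Without both libraries that stood apart, which were picked from these same data, the log2 fold change of Rel was 0.60 (edgeR adjusted p = 1.23e-07). With IL-27 its level differed from untreated by a log2 fold change of -0.01 (95% interval -0.33 to 0.31). Rel was 1.50-fold lower with IL-27 than with IL-4 (adjusted p = 0.0171 by edgeR), a call that missed the threshold with IL-4 library 2 (0.0588) or 3 (0.0605), or IL-27 library 1 (0.0503) or 2 (0.0670), left out.

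Nfkb1, which encodes p105 and the DNA-binding subunit p50, had 129, 164 and 128 CPM in untreated, 200, 160 and 161 with IL-4 and 108, 117 and 108 with IL-27. The IL-27 libraries lay below all others, and the untreated and IL-4 ranges overlapped through untreated replicate 2. Nfkb1 was 1.57-fold lower with IL-27 than with IL-4 (log2 fold change -0.65 ± 0.12 SE, edgeR adjusted p = 0.00234). Against untreated cells its log2 fold changes of 0.31 with IL-4 and -0.34 with IL-27 were not called (adjusted p = 0.0997 and 0.0668 by edgeR). Without untreated replicate 2 the IL-4 value was 0.43 (adjusted p = 0.0174), and without IL-4 replicate 1 the adjusted p of the IL-27 value was 0.0263. Without both libraries that stood apart the values were 0.32 (adjusted p = 2.53e-05) and -0.22 (0.000741).

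Rela encodes p65, the main transactivating subunit of the canonical pathway, and had 110, 145 and 111 CPM in untreated, 111, 84.3 and 88.7 with IL-4 and 104, 106 and 103 with IL-27. It was not called in any comparison, with log2 fold changes of -0.37 for IL-4 (edgeR adjusted p = 0.0771), -0.22 for IL-27 and 0.14 between the cytokines. The IL-4 value was called without IL-4 replicate 1 (log2 fold change -0.50, adjusted p = 0.0132) and without both libraries that stood apart (-0.35, adjusted p = 9.83e-06), as was the difference between the cytokines without both (0.27, adjusted p = 6.42e-05). Nfkb2, the precursor of p52, had 59.6, 73.5 and 53.5 CPM in untreated, 65.6, 43.8 and 42.8 with IL-4 and 47.8, 41.5 and 45.7 with IL-27. Every IL-27 library lay below every untreated one, while the IL-4 range overlapped the others. Its log2 fold changes of -0.30 with IL-4 and -0.47 with IL-27 were not called (edgeR adjusted p = 0.262 and 0.0736). Without IL-4 replicate 1 they passed (adjusted p = 0.0157 and 0.0116), as they did without both libraries that stood apart, at -0.38 (0.000284) and -0.34 (0.000368). The difference of -0.17 between the cytokines turned to 0.05 without both.

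**Figure D3:**
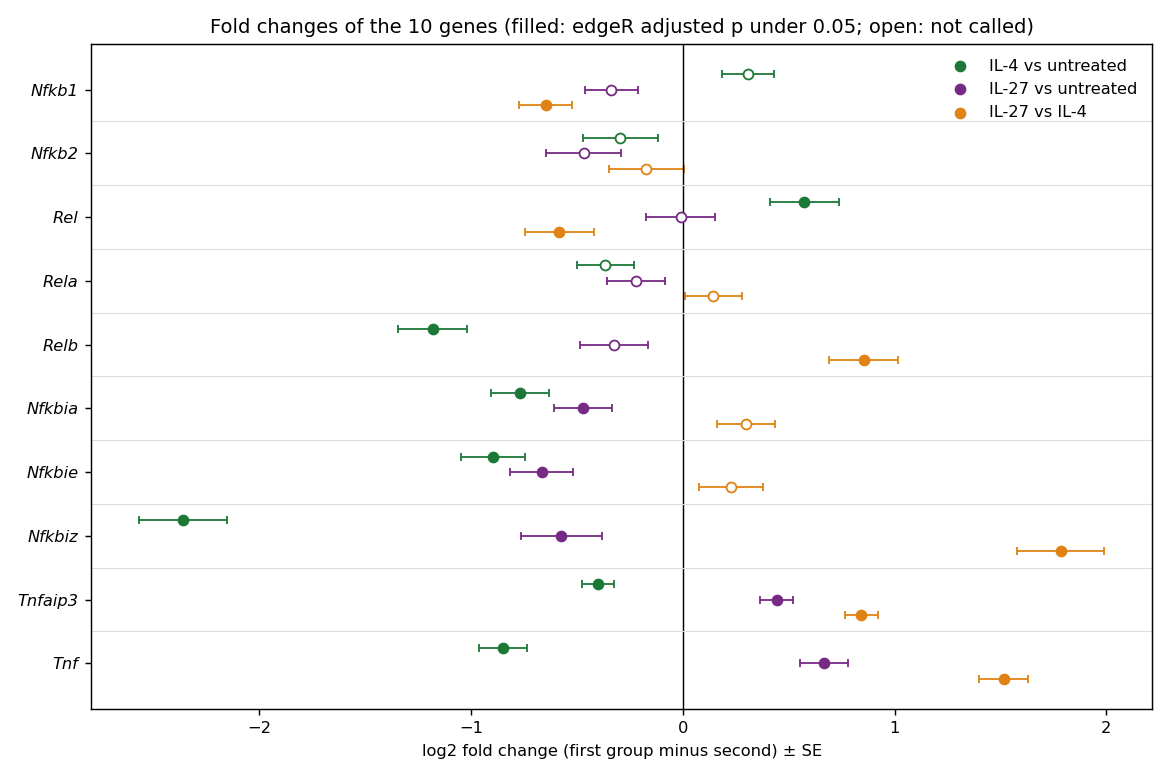
Log2 fold change ± SE (x axis, first group minus second) of the 10 genes (rows) in the 3 comparisons, filled where edgeR's adjusted p was under 0.05. Nfkbiz has the widest span, from -2.36 with IL-4 against untreated to 1.78 with IL-27 against IL-4, and only Tnf and Tnfaip3 have filled points on opposite sides of 0 for IL-4 and IL-27 against untreated.

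The makeup of Rel-family RNA by length-scaled level (FPKM, which divides counts by gene length and library total) put Nfkb1 ahead of Rela with IL-4. Nfkb1 made up 36.8% ± 0.288 (SD, n = 3) of the summed FPKM of the 5 subunits in untreated cells, 46.5% ± 0.909 with IL-4 and 35.0% ± 1.27 with IL-27. Rela made up 46.0% ± 1.36, 36.4% ± 1.46 and 47.6% ± 0.121. These shares did not overlap between IL-4 and the other groups. Relb made up 4.61%, 2.09% and 4.45% on average, Rel 6.54%, 9.91% and 7.63%, and Nfkb2 6.12%, 5.06% and 5.34%. The gene lengths implied by the deposited FPKM were 10990 bases for Nfkb2 and 6167 for Relb, against 3846 and 2209 for their longest coding transcripts in GENCODE vM21, while those of the other 8 genes were within 0.942 to 1.08 times. With the GENCODE lengths the share of Nfkb1 was 30.2%, 40.5% and 29.1%, and that of Relb 10.5%, 5.05% and 10.3%. Within a library, the CPM ratio of Nfkb1 to Rela, which needs no gene length to be compared across groups, was 1.15 ± 0.0253 (SD, n = 3) in untreated, 1.84 ± 0.0549 with IL-4 and 1.06 ± 0.0360 with IL-27. The 3 groups did not overlap, and an exact two-sided permutation test gave p = 0.1 for each pair of groups, the smallest that 3 against 3 libraries allow.

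Nfkbia, Nfkbie and Nfkbiz fell with both cytokines, and Nfkbiz fell furthest with IL-4. Nfkbiz encodes IkB-zeta, a nuclear protein that acts as a coactivator for a subset of NF-kappa-B targets such as Il6 rather than as a cytoplasmic inhibitor. It had 13.2, 9.79 and 11.4 CPM in untreated, 2.85, 1.82 and 2.06 with IL-4 and 8.86, 7.45 and 6.81 with IL-27, and the 3 groups did not overlap. It fell 5.13-fold with IL-4 (log2 fold change -2.36 ± 0.21 SE, edgeR adjusted p = 3.67e-05), and only 1.45% of all tested genes had a larger absolute log2 fold change. Compared only between the 2 libraries that stood apart the log2 difference was -1.78, and between the other untreated and IL-4 libraries it was -2.66.

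With IL-27 Nfkbiz fell 1.49-fold (log2 fold change -0.57 ± 0.19 SE, edgeR adjusted p = 0.0472). That call did not survive leaving out untreated library 1 (0.151) or 3 (0.0950), IL-4 library 3 (0.0635), or any IL-27 library (0.0571, 0.133 and 0.154 for replicates 1, 2 and 3). It was 3.45-fold higher with IL-27 than with IL-4 (adjusted p = 8.14e-05 by edgeR), so the fall with IL-4 was the larger by a direct test.

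Nfkbia, which encodes IkB-alpha, the main cytoplasmic inhibitor, had 52.9, 58.4 and 46.1 CPM in untreated, 37.0, 27.9 and 27.6 with IL-4 and 40.4, 35.9 and 37.4 with IL-27. All untreated libraries lay above all treated ones. It fell 1.70-fold with IL-4 (log2 fold change -0.77 ± 0.14 SE, edgeR adjusted p = 0.00272) and 1.38-fold with IL-27 (-0.47 ± 0.14, 0.0271). The IL-27 call did not survive leaving out untreated library 1 (0.0678) or 2 (0.0667), or any IL-27 library (0.0550, 0.0998 and 0.0859 for replicates 1, 2 and 3). The difference between the cytokines was not called (log2 fold change 0.30, 95% interval 0.03 to 0.57, edgeR adjusted p = 0.111), but was 0.45 without IL-4 replicate 1 (0.0124) and 0.44 without both libraries that stood apart (3.59e-05).

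Nfkbie, which encodes IkB-epsilon, another cytoplasmic inhibitor, had 16.4, 19.1 and 13.4 CPM in untreated, 8.92, 8.34 and 9.01 with IL-4 and 9.71, 9.52 and 11.5 with IL-27. The 3 groups did not overlap. It fell 1.86-fold with IL-4 (log2 fold change -0.89 ± 0.15 SE, edgeR adjusted p = 0.00194) and 1.59-fold with IL-27 (-0.67 ± 0.15, 0.00800). Between the cytokines the log2 fold change of 0.23 was not called (95% interval -0.07 to 0.52, edgeR adjusted p = 0.257). The CPM ratio of Nfkbia to Nfkbie was 3.25 ± 0.192 (SD, n = 3) in untreated, 3.52 ± 0.561 with IL-4 and 3.73 ± 0.461 with IL-27, and its ranges overlapped in each pair of groups. Both carry 1 kappa-B match in the promoters shown above, as does Rel, which rose with IL-4, and a link to the levels was not tested.

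Tnfaip3 and Tnf both fell with IL-4 and both rose with IL-27. Tnfaip3 encodes A20, a ubiquitin-editing enzyme that shuts down signalling upstream of IKK. It had 62.4, 60.0 and 63.7 CPM in untreated, 47.0, 48.7 and 45.4 with IL-4 and 83.2, 86.4 and 83.6 with IL-27, and the 3 groups did not overlap. It fell 1.32-fold with IL-4 (log2 fold change -0.40 ± 0.08 SE, edgeR adjusted p = 0.00433), rose 1.36-fold with IL-27 (0.44 ± 0.08, 0.00197) and was 1.79-fold higher with IL-27 than with IL-4 (adjusted p = 1.84e-05). Its coefficient of variation within groups was 2.04% to 3.53%, and its IL-27 libraries held 3052 to 3131 counts.

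Tnf, the inflammatory cytokine that activates NF-kappa-B through its receptors, had 12.9, 13.5 and 11.8 CPM in untreated, 7.77, 6.74 and 6.69 with IL-4 and 19.4, 20.5 and 20.7 with IL-27. The 3 groups did not overlap, and in both groups that hold one, the library that stood apart was the highest. Tnf fell 1.80-fold with IL-4 (log2 fold change -0.85 ± 0.11 SE, edgeR adjusted p = 0.000528) and rose 1.59-fold with IL-27 (0.67 ± 0.11, 0.00159). It was 2.86-fold higher with IL-27 than with IL-4 (log2 fold change 1.52 ± 0.12 SE, edgeR adjusted p = 4.59e-06). Every call of Tnf and Tnfaip3 held in all 17 alternative analyses.

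Tnf and Nfkbia both fell with IL-4, and with IL-27 Tnf rose while Nfkbia fell. Their CPM ratio was 0.243 ± 0.0125 (SD, n = 3) in untreated libraries and 0.231 ± 0.0184 with IL-4, and these ranges overlapped. With IL-27 it was 0.535 ± 0.0476, 2.19-fold the untreated value, with no overlap. The ratio of Relb to Rela was 0.216 ± 0.0222 in untreated, 0.123 ± 0.0116 with IL-4 and 0.201 ± 0.0217 with IL-27, with IL-4 below both others. For each non-overlapping pair of groups the exact two-sided permutation p was 0.1, the smallest possible with 3 against 3. The 6 gene pairs whose ratios were computed were chosen after their values were seen.

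**Figure D4:**
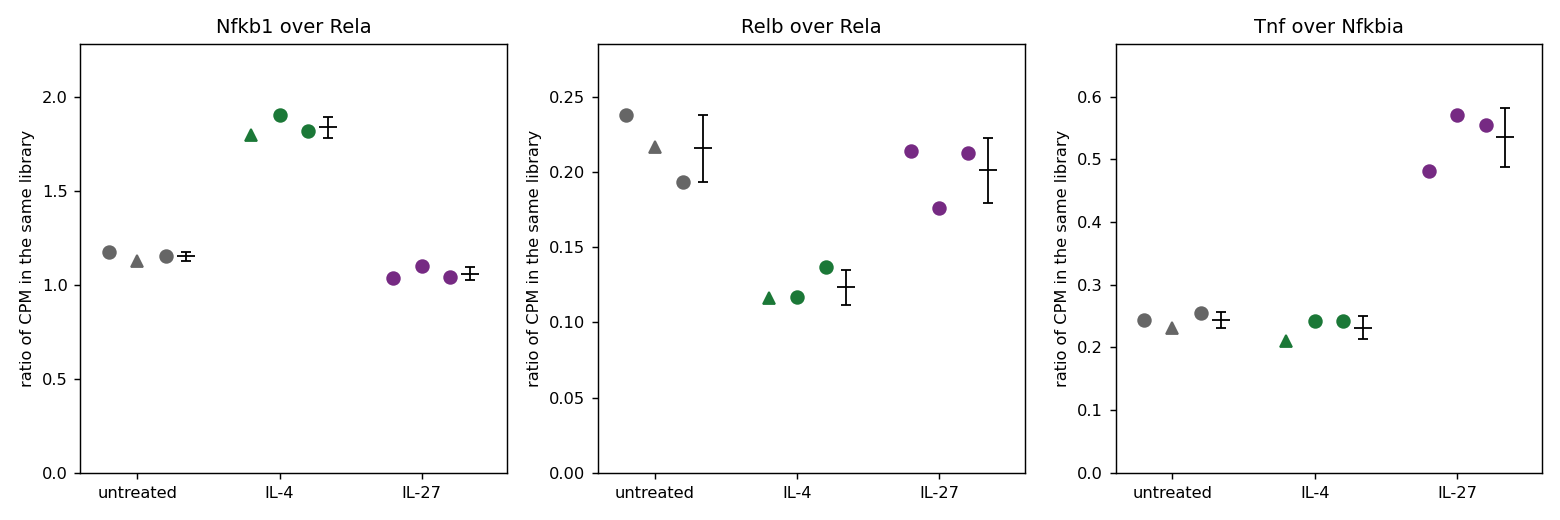
Ratios of TMM-normalised CPM of gene pairs within each library (y axes, linear from 0), with points for libraries, a black bar for the mean ± SD of 3, and triangles for untreated replicate 2 and IL-4 replicate 1. The Nfkb1 to Rela ratio rises from 1.15 in untreated to 1.84 with IL-4, and the Tnf to Nfkbia ratio is 0.535 with IL-27 against 0.243 in untreated.

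On the FPKM scale, Rela, Nfkb1 and Nfkbia were the most abundant of the 10 transcripts in each group and Nfkbiz the least. In untreated cells Rela had 42.1 ± 3.77 (SD, n = 3), Nfkb1 33.6 ± 2.36 and Nfkbia 33.0 ± 2.54, and the last 2 overlapped. Tnfaip3 followed at 12.9 and Tnf at 7.65, and then Nfkbie at 6.61, Rel at 5.91 and Nfkb2 at 5.60, which overlapped in that order, Relb at 4.22 and Nfkbiz at 2.96. With IL-4, Nfkb1 was first at 42.9 ± 2.92, above Rela at 33.7 ± 3.08, and Nfkbia followed at 19.9. Tnfaip3 at 10.1 overlapped Rel at 9.05, and Nfkb2 at 4.68 overlapped Tnf at 4.37, with Nfkbie at 3.68, Relb at 1.93 and Nfkbiz at 0.587 below. With IL-27, Rela was first at 35.9 ± 0.269, then Nfkb1 at 26.4, Nfkbia at 23.6, Tnfaip3 at 17.3 and Tnf at 12.0. Rel at 5.75, Nfkbie at 4.13 and Nfkb2 at 4.02, the last 2 overlapping, then Relb at 3.35 and Nfkbiz at 1.95 completed the order. With the GENCODE lengths, Nfkb2 moved to 16.0 and Relb to 11.8 in untreated cells, ranks 4 and 6 of the 10.

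For the members called with an absolute log2 fold change over 1, the genes with the nearest pattern over the 9 libraries were found among 9396 genes, by the root mean square difference of log2 CPM centred on the untreated mean. Nearest to Relb were Ypel3 (0.139) and Fam102a (0.149). Nearest to Nfkbiz were Cd14 (0.275), the lipopolysaccharide co-receptor of macrophages, and Mamdc2 (0.286). Nearest to Tnf were Mgll (0.109), which encodes monoglyceride lipase, and Gpr137b (0.112). Cd14 had a log2 fold change of -2.64 with IL-4 and -0.76 with IL-27, beside -2.36 and -0.57 for Nfkbiz. Mgll had -0.90 and 0.60, beside -0.85 and 0.67 for Tnf. Such closeness follows from how these genes were picked, in the same libraries.

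Upstream of the members, the core IKK genes were not called with all libraries, and several adaptors were. Of 30 genes for the IKK complex and its adaptors, 1 was higher and 9 lower with IL-4, 2 higher and 4 lower with IL-27, and 4 higher and 2 lower with IL-27 against IL-4, with median log2 fold changes of -0.19, -0.06 and 0.09. The shares called were 33.3%, 20% and 20%, against 25.0%, 29.2% and 39.8% of all tested genes. Taken in either direction with all libraries, the list's shares are near or below those over all genes. By direction, the 9 lower and 1 higher of 30 with IL-4 stand beside 12.0% lower and 12.9% higher of all tested genes. The kinases Ikbkb and Chuk, the regulatory subunit Ikbkg and the non-canonical kinase Map3k14 were not called in any of the 3 comparisons with all libraries. Irak2, a kinase that relays Toll-like receptor signals, fell 1.89-fold with IL-4, from 76.1 ± 6.81 CPM (SD, n = 3) to 40.3 ± 3.59 (edgeR adjusted p = 0.000123), and rose 2.10-fold with IL-27 to 160 ± 3.47 (3.41e-05). Ikbke, an IKK-related kinase, fell with both, 2.41-fold (0.000186) and 2.73-fold (6.45e-05), as did the ubiquitin ligase Birc3, 1.71-fold (0.000429) and 1.44-fold (0.00362). Traf5, a TNF receptor adaptor, rose 2.70-fold with IL-4 (edgeR adjusted p = 4.37e-05). The number of lower genes with IL-4 was 5 when untreated library 1 or 3 was left out and 4 when IL-4 library 3 was. The higher count with IL-27 was 1 when untreated library 3, IL-4 library 3 or any IL-27 library was left out. The higher count between the cytokines was 8 without untreated library 2 and 7 with DESeq2 or with a filter of CPM over 1 in 3 libraries. Without both libraries that stood apart the counts were 3 higher and 17 lower for IL-4, 13 and 4 between the cytokines, and 6 and 7 for IL-27, where 46.4%, 58.3% and 49.5% of all tested genes were called. In that fit Ikbkb was lower with IL-4 and with IL-27 (edgeR adjusted p = 0.00468 and 0.00340), and Map3k14 was lower with IL-4 (log2 fold change -0.44, 0.0121). Ikbkg was higher with IL-4 (0.17, edgeR adjusted p = 0.0276), and Chuk was higher with IL-27 (0.26, 0.00133). Chuk and Map3k14 were also higher with IL-27 than with IL-4 (0.16 and 0.33, edgeR adjusted p = 0.0309 and 0.0333). With IL-4 library 1 alone left out, Map3k14 was lower with IL-4 (-0.67, 0.0311), and Ikbkb was lower with IL-4 and with IL-27 (0.0496 and 0.0335). Ikbkb was also lower with IL-27 when only the 2 groups were fitted (edgeR adjusted p = 0.0442).

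Of 20 other IkB proteins and negative regulators, 4 were higher and 4 lower with IL-4, 1 higher and 5 lower with IL-27, and 6 higher and 7 lower between the cytokines, with medians of -0.17, -0.06 and 0.02. The shares called were 40%, 30% and 65%, against 25.0%, 29.2% and 39.8% of all tested genes, so that the share with IL-27 was close to that over all genes. Bcl3, a nuclear IkB protein that binds p50 and p52, fell 1.89-fold with IL-4, from 10.8 ± 1.85 to 5.72 ± 0.767 CPM (edgeR adjusted p = 0.00270), and 1.52-fold with IL-27 (0.0184). The IL-27 call missed the threshold with untreated library 2 (0.0539), or IL-27 library 2 (0.0593) or 3 (0.0715), left out. Nfkbid, another nuclear IkB protein, fell 1.71-fold with IL-27 (0.000405), and Nfkbib, which encodes IkB-beta, was not called with either cytokine against untreated with all libraries. Nfkbib, without both libraries that stood apart, was lower with IL-4 (log2 fold change -0.33, edgeR adjusted p = 0.00771) and higher with IL-27 (0.29, 0.00919), and without IL-4 replicate 1 alone it was lower with IL-4 (-0.52, 0.0382). Tnip1, a partner of A20, fell 1.59-fold with IL-4 (0.000420), and its relative Tnip3 fell 2.79-fold with IL-27 (0.00121). Irak3, which restrains Toll-like receptor signals, fell 2.04-fold with IL-4 (0.000392). Without both libraries that stood apart 9 genes were lower with IL-4 and, with IL-27, 5 were higher and 8 lower. In that fit 46.4% of all tested genes were called with IL-4 and 49.5% with IL-27. Without untreated replicate 3 the higher count with IL-4 was 2, and the higher count with IL-27 was 2 without untreated library 2 or IL-4 library 1. The lower count with IL-27 was 3 when untreated library 2 or IL-27 library 2 or 3 was left out.

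Among genes that process TNF or act on its mRNA, Zfp36 moved in the direction opposite to Tnf with each cytokine. It encodes tristetraprolin, which binds Tnf mRNA and speeds its decay, and a link of Zfp36 to the Tnf level was not tested. It had 88.6 ± 5.33 CPM (SD, n = 3) in untreated, 144 ± 5.72 with IL-4, where it rose 1.62-fold (edgeR adjusted p = 0.000318), and 56.2 ± 3.63 with IL-27, where it fell 1.57-fold (0.000387). Its relative Zfp36l1 fell 3.77-fold with IL-27 (1.97e-06), and Zfp36l2 fell 1.37-fold with IL-4 (0.00253). Adam17, the protease that sheds TNF, fell 1.25-fold with IL-4 (0.00961), a call lost when only the 2 groups were fitted (0.0527). Timp3, an inhibitor of that protease, rose 5.50-fold with IL-27, from 78.0 ± 7.73 to 429 ± 43.4 CPM (1.19e-06), in the libraries where the summed fibroblast markers were also higher (1044 to 1306 CPM against 680 to 772), a part that was not tested. The TNF receptor Tnfrsf1b fell 1.37-fold with IL-4 (0.00642) and 1.35-fold with IL-27 (0.00706), and Tnfrsf1a was not called in any comparison with all libraries. Tnfrsf1a, without both libraries that stood apart, was lower with IL-4 (log2 fold change -0.24, edgeR adjusted p = 0.000396) and higher with IL-27 than with IL-4 (0.16, 0.00704). Without IL-4 replicate 1 alone it was lower with IL-4 (-0.36, edgeR adjusted p = 0.0335).

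Of the 13 tested genes of this list, 1 was higher and 3 lower with IL-4, 2 higher and 3 lower with IL-27, and 3 higher and 2 lower between the cytokines, with medians of -0.22, -0.15 and 0.14. The shares called were 30.8%, 38.5% and 38.5%, against 25.0%, 29.2% and 39.8% of all tested genes, and the share between the cytokines was close to that over all genes. Lta did not pass the filter. Without both libraries that stood apart the counts were 3 higher and 6 lower with IL-4, 5 higher with IL-27 and 6 higher between the cytokines. In these 3 comparisons 46.4%, 49.5% and 58.3% of all tested genes were called in that fit. The higher count with IL-27 was 4 without untreated replicate 2 or IL-4 replicate 1, and 1 when untreated library 1 or 3 or IL-27 library 3 was left out.

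Textbook targets of NF-kappa-B were mostly lower with IL-4 and split with IL-27. Of 23 tested targets, 3 were higher and 13 lower with IL-4, 7 higher and 5 lower with IL-27, and 15 higher and 4 lower with IL-27 against IL-4, with medians of -0.51, -0.07 and 0.95. The shares called were 69.6%, 52.2% and 82.6%, against 25.0%, 29.2% and 39.8% of all tested genes, of which 12.9% were higher and 12.0% lower with IL-4, and 14.0% higher and 15.1% lower with IL-27. The full list held 30 targets, of which Il6, Cxcl1, Cxcl3, Nos2 and Lcn2 did not pass the filter. Some targets that passed were near the floor. Cxcl2 had a mean of 0.774 CPM in untreated and 0.0434 in IL-4 libraries, Cxcl10 0.498 and 0.0437, and Saa3 0.788 and 0.998. Il12b and Csf3 had no row under these symbols in the count table. Tlr2, the receptor for bacterial lipoproteins, fell 7.32-fold with IL-4, from 57.6 ± 11.0 to 7.86 ± 0.952 CPM (edgeR adjusted p = 3.21e-06). Ccrl2 fell 3.09-fold with IL-4 (3.21e-06) and rose 2.16-fold with IL-27 (2.10e-05), and Tnfaip2 fell 2.96-fold with IL-4 (2.83e-06). Ier3, an early response gene, rose 4.23-fold with IL-4 (4.75e-06). Plau, which encodes urokinase, rose 3.32-fold with IL-27 (8.51e-06), and the survival gene Bcl2l1 rose 1.77-fold (0.000443).

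Il1b, the inflammatory cytokine interleukin-1 beta, had 262 counts over the 3 untreated libraries, 17 over the IL-4 libraries and 1 over the IL-27 libraries. The ratio of untreated to IL-4, scaled for depth, was 16.1 (exact 95% counting interval 9.89 to 28.1), and that of untreated to IL-27 was 277 (49.2 to 10969), intervals that cover counting error only. Il1b was called lower with each cytokine (edgeR adjusted p = 0.00135 and 0.000221), while Tnf was higher with IL-27. The number of lower targets with IL-27 was 2, 3, 2 and 1 without untreated replicate 3 and IL-27 replicates 1, 2 and 3.

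**Figure D5:**
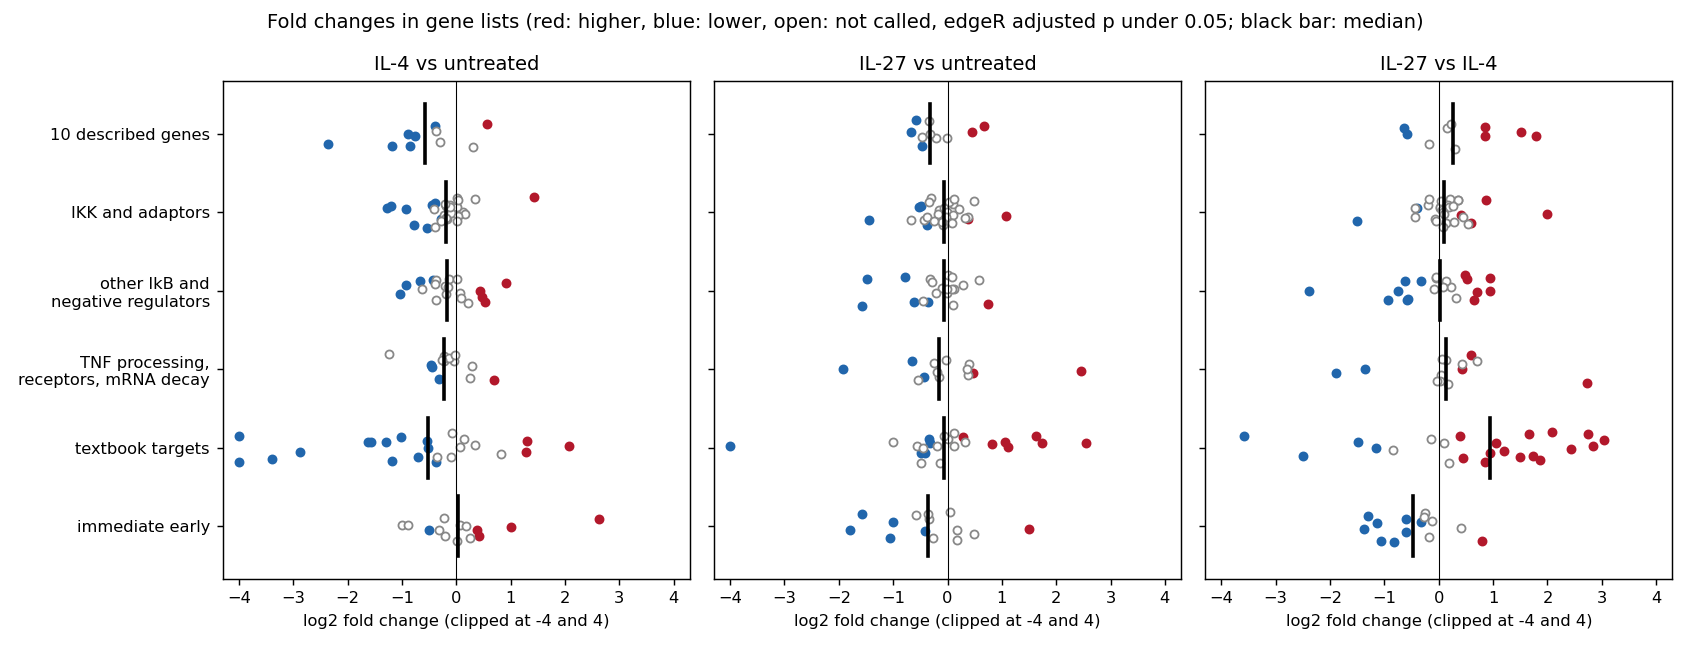
Log2 fold changes (x axis) of the tested genes of 6 lists (rows) in the 3 comparisons (panels), red where called higher, blue where called lower and open where not called, with a black bar for the median. The targets lie mostly below 0 with IL-4 (median -0.51) and mostly above 0 with IL-27 against IL-4 (median 0.95); 2 targets with IL-4 and 1 with IL-27 lie beyond the axis and are drawn at its edge.

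Immediate early genes respond fast to many stimuli and to handling. Of 14 tested, 4 were higher and 1 lower with IL-4, 1 higher and 5 lower with IL-27, and 1 higher and 8 lower between the cytokines, with medians of 0.04, -0.35 and -0.47. The shares called were 35.7%, 42.9% and 64.3%, against 25.0%, 29.2% and 39.8% of all tested genes. Their summed level was 1605 to 1719 CPM in untreated, 1974 to 2206 in IL-4 and 1684 to 1747 in IL-27 libraries, and its part in the results was not tested. Klf4 rose 6.21-fold with IL-4 (edgeR adjusted p = 1.16e-06) and 2.81-fold with IL-27 (2.81e-05), and Fos fell 1.99-fold with IL-27 (8.76e-05). The lower count with IL-4 was 0 without untreated replicate 1 or 3 and 3 without IL-4 replicate 1, and the higher count with IL-27 was 2 without the latter. Without both libraries that stood apart 5 were lower with IL-4 and 5 higher with IL-27, where 46.4% and 49.5% of all tested genes were called.

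Genes known to respond to the cytokines themselves were checked beside the members. Cish, a STAT-induced feedback inhibitor, rose 48.7-fold with IL-4, from 0.856 ± 0.211 to 41.9 ± 7.66 CPM (edgeR adjusted p = 2.97e-07). In the IL-27 libraries Cish was at 0.201 ± 0.0562 CPM (SD, n = 3). Whether the cells given IL-27 also received IL-4 was not tested. Irf1 rose 5.00-fold with IL-27, from 60.9 ± 12.1 to 305 ± 18.1 CPM (3.92e-06). Socs1, another feedback inhibitor, rose 14.1-fold with IL-4 (2.20e-06) and 3.65-fold with IL-27 (0.000125). Stat3 fell 1.40-fold with IL-4 (0.0221), a call that missed the threshold with untreated library 3 (0.0549), or IL-4 library 2 (0.0797) or 3 (0.0778), left out, and when only the 2 groups were fitted (0.0717).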

How the data were processed

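PolyA RNA of 9 macrophage samples was isolated with TRIzol and made into libraries with a kit from VAHTS (Universal V6), per the labels' protocols. The authors deposited raw read counts per gene. The submitters' processing notes list HISAT2, HTSeq and fastp, with GRCm39 as the build, and no versions. The FPKM values, also deposited by the authors, are these counts over gene length and library total, since the lengths they imply were whole within 1e-06 bases for 100% of genes. No source used here states the counting strand, the annotation, or how reads that fit several genes were handled.

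Counts were fitted in R 4.3.3 with edgeR 4.0.16 (quasi-likelihood F test, a term for group over all 9 libraries, TMM factors of 0.918 to 1.06, filterByExpr with a minimum count of 10). The threshold for a call was 0.05 on the Benjamini-Hochberg adjusted p over 12587 genes. The SE was back-calculated from F and is approximate, and 95% intervals are that SE on the normal scale. FPKM served to compare levels between genes and to compute the shares of the Rel-family subunits, which were also compared between groups. The procedure was tested on simulated counts, and the outcome is not reported here. Those counts were drawn independently for each library, without the shared deviation of the 2 libraries that stood apart. Alternatives were RLE factors, DESeq2 1.42.0, other filters, only the groups compared, a replicate block, each library left out, and both libraries that stood apart left out or given their own term.

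Members and gene lists were chosen with earlier results of these data known, and no p is adjusted over a list. The text names all 10 members, up to 4 genes per list and comparison by smallest adjusted p, a fixed set (Ikbkb, Chuk, Ikbkg, Map3k14, Nfkbib, Nfkbid, Bcl3, Adam17, Zfp36, Tnfrsf1a, Tnfrsf1b) and, for members called with an absolute log2 fold change over 1, the 2 genes nearest in pattern with a mean of at least 5 CPM. Not all genes the rule takes are described, and some are not reported here. Il1b intervals are exact binomial. Of 9 same-number pairs of libraries, 1 had deviations correlated over 0.1 (r from -0.797 to 0.666). Between untreated and IL-4 libraries this cannot decide pairing, because deviations there followed the 2 libraries that stood apart. Untreated replicate 1 and IL-4 replicate 2, with different numbers, had r = 0.683. Same-number pairs with an IL-27 library had r from -0.00551 to 0.0810, and different-number pairs with one from -0.0822 to 0.0735.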

Additional observations from a re-analysis of the deposited data

How the results depend on the processing

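Of 510 values (10 genes, 3 comparisons, 17 alternatives), 459 kept their direction and side of the threshold, 20 lost a call, 25 gained one and 6 turned in direction, none of which was called. Fitting only the 2 groups compared gave 0 members higher with IL-4 and 5 lower with IL-27. Without untreated replicate 2 and IL-4 replicate 1, 5909 genes were called for IL-4 and 6313 for IL-27, of which 3052 and 3616 were among the 3145 and 3670 called with all libraries, and 2 members were higher with IL-4 and 5 lower with IL-27. A term for these 2 libraries, chosen after seeing the data, gave 6815, 6591 and 7638 genes (IL-27 against IL-4), 2 members higher with IL-4, 6 lower with IL-27 and 7 higher with IL-27 against IL-4. In those 2 settings the IL-27 against IL-4 log2 fold change turned to 0.048 and 0.018 for Nfkb2 and to 0.014 and 0.022 for Ikbkb. The cause of these changes was not tested.

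Leaving out 1 library gave 2313 to 3666 genes called for IL-4 and 2580 to 4618 for IL-27, with 0 to 1 members higher with IL-4, 1 to 5 lower with IL-27 and 1 to 2 lower with IL-27 against IL-4. Uncalled log2 fold changes crossed 0 in some of these, within -0.085 to 0.32 for Chuk with IL-4 and -0.14 to 0.061 for Rel with IL-27. With IL-27 against IL-4 they ranged from -0.28 to 0.054 for Nfkb2, -0.16 to 0.020 for Ikbkb, -0.044 to 0.33 for Map3k14, -0.049 to 0.16 for Tnfrsf1a and -0.021 to 0.092 for Tnfrsf1b. A group left with 2 libraries borrows its spread from the others in the shared fit. With a replicate block, 2308, 2899 and 4216 genes were called for IL-4, IL-27 and IL-27 against IL-4, and Rel and Stat3 with IL-4 (adjusted p = 0.0610 and 0.0648 by edgeR) and Bcl3 with IL-27 (0.0506) were not. RLE factors, DESeq2 and the other filters kept each count of members within 1.5 times.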
